A study of Rattus norvegicus with 29 samples.

Results

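The genes described here belong to the MAP kinase cascade and to CREB signalling, measured in the nucleus accumbens shell, a ventral striatal region that takes part in reward, of P rats, a line bred for preference for alcohol. They were chosen as 41 gene symbols, each read on its brightest probe set by mean over all 29 arrays, a probe set being the group of array probes designed against a transcript. Of the 41 genes, 34 had a probe set listed under their symbol alone and 33 of these passed the filter on dim probe sets and were tested. The platform table as a whole names 20832 probe sets with a single symbol. The other 7 genes, Hras, Braf, Map2k4, Map2k7, Mapk3, Mapk10 and Rps6ka1, were not analysed here, and Nf1 was too dim to be tested.

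The 3 groups were rats given water with no ethanol (Water_only, n = 9), rats with limited access to ethanol (Limited_Ethanol, n = 10) and rats with continuous access to ethanol (Continuous_ethanol, n = 10). The design text counts 10 samples in each group, and a further water sample was not analysed here. All rats were of the P line. The labels give no age, sex, ethanol dose, hours of access or time of tissue collection, nor do they say that every array came from its own animal. The p-values therefore describe variation among arrays, some of which may be technical. On the second principal component, which held 16.5% of the variance, 5 arrays lay apart: water replicates 2, 5 and 6 and limited replicates 6 and 7. Values without them are given after the results.

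The cascade carries signals from receptors at the cell surface to the nucleus. Adaptor proteins recruit exchange factors that load Ras with GTP, Ras activates RAF kinases, and RAF, MEK and MAP kinases phosphorylate each other in turn, with separate branches for ERK, JNK, p38 and ERK5. ERK activates the kinases RSK and MSK, which phosphorylate the transcription factor CREB, while ELK1 and SRF carry the same signal to serum response elements; in the striatum this route couples dopamine and glutamate input to the induction of genes such as Fos and Arc. Most of this regulation is by phosphorylation, which these arrays do not measure.

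To show what CREB and SRF recognise, promoter windows from RefSeq, 250 bases before to 50 after each gene's start in assembly GRCr8, were searched on both strands for the cAMP response element (CRE, TGACGTCA), for its core TGACG, which lies within the full CRE, and for the CArG box bound by SRF. Windows were present for 37 of the 41 genes, 41 windows in all. The CRE was in 4 of the 41 windows (9.76%) against 1.83% of all 33469 windows, the core in 18 (43.9%) against 21.2%, and the CArG box in 1 (2.44%) against 1.64%. The windows with a CRE were those of Braf, Mapk10 and Crem, which has 2 of them, and the window with the CArG box was that of Srf. Of these genes Crem and Srf were measured, so their windows are shown, on the plus strand and with full CRE and CArG box matches in capitals; matches to the core alone stay in lower case. Crem encodes a CREB relative, and its downstream starts are known to give the repressor ICER. The window of Dusp1, a MAP kinase phosphatase gene that rose in these arrays, is shown for comparison.
Crem, chr17:58984547-58984846: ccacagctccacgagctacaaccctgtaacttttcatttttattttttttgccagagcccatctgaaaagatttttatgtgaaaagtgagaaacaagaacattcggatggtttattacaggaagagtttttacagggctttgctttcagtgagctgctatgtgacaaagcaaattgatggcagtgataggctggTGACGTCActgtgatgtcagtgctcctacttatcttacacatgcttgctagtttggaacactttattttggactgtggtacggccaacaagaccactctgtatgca
Crem, chr17:58985240-58985539: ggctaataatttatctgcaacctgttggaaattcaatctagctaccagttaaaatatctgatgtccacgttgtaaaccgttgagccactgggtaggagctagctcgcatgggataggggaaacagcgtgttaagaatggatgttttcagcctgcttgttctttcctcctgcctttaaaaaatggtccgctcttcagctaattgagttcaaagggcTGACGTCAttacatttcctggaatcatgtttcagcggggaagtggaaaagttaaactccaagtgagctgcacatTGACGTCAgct
Srf, chr9:21923826-21924125: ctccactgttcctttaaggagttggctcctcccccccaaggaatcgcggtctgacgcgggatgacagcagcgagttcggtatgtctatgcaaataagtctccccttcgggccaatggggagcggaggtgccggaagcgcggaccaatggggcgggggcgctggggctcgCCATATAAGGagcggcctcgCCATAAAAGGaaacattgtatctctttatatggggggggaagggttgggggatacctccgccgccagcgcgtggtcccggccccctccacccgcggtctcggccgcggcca
Dusp1, chr10:17184603-17184902: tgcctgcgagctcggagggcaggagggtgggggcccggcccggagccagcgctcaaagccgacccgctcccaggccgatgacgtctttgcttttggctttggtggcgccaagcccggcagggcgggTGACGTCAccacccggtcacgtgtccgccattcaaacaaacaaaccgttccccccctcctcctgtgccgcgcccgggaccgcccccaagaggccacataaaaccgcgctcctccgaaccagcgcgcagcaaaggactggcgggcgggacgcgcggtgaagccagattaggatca
The remaining Crem window, at chr17:58933816-58934115, had no full CRE. A match is a description of these letters and does not show binding.

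No gene of the cascade passed the test in any comparison. In continuous ethanol against water, 0 of 33 passed in limma at an adjusted p under 0.05, where 33 of all 21729 tested probe sets did (0.152%), 19 of them higher (0.0874%) and 14 lower (0.0644%). At an unadjusted p under 0.05 were 4 of the 33, 3 higher and 1 lower, against 16.1% of all (9.62% higher, 6.48% lower). In limited ethanol against water 0 of 33 passed (0% of all tested). At an unadjusted p under 0.05 was 1 of the 33, which was lower, against 4.44% of all (2.10% higher, 2.34% lower). In limited against continuous ethanol 0 of 33 passed (0.00460% of all tested), with 2 of the 33 at an unadjusted p under 0.05, 1 in each direction, against 9.31% of all (3.56% higher, 5.74% lower). For the mean of both ethanol groups against water 0 of 33 passed (0.0874% of all tested, 0.0506% higher and 0.0368% lower), with 3 at an unadjusted p under 0.05, 2 higher and 1 lower, against 10.2% of all (5.73% higher, 4.46% lower). The moderated F test over the 3 groups likewise called 0 of 33 (0.0828% of all tested), with 3 at an unadjusted p under 0.05 against 11.6% of all.

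The differences were small as well as uncalled. Median differences of the 33 genes were -0.01 for continuous against water, -0.01 for limited against water and -0.00 for limited against continuous (log2), where those over all tested probe sets were 0.00, 0.00 and -0.01. Positive differences were found for 13, 12 and 15 of the 33 genes in that order, against 52.5%, 50.5% and 46.6% of all tested probe sets, and for 12 of the 33 against 52.0% for the mean of both ethanol groups. Rps6ka5 apart, every 95% interval in all 4 comparisons lay within 0.3 on either side of 0 on the log2 scale, which is 1.23-fold. Within 0.2, which is 1.15-fold, lay 26 of 33 intervals in each pairwise comparison and 28 of 33 for the mean of both ethanol groups. For 21 of 33 genes the difference between continuous ethanol and water was under 0.05 in size, and for 22 that between limited ethanol and water. The residual SD between arrays of a group had a median of 0.11 over the 33 genes and 0.12 over all tested probe sets, and it ran from 0.05 for Grb2 to 0.61 for Rps6ka5. The value ranges of the groups overlapped for each of the 33 genes in each comparison. Almost all tested probe sets overlapped too, so this does not set the 33 genes apart. The share without overlap was 0.0322% for continuous against water and 0.00460% for limited against water. For limited against continuous and for both ethanol groups against water it was 0%.

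**Figure D1:**
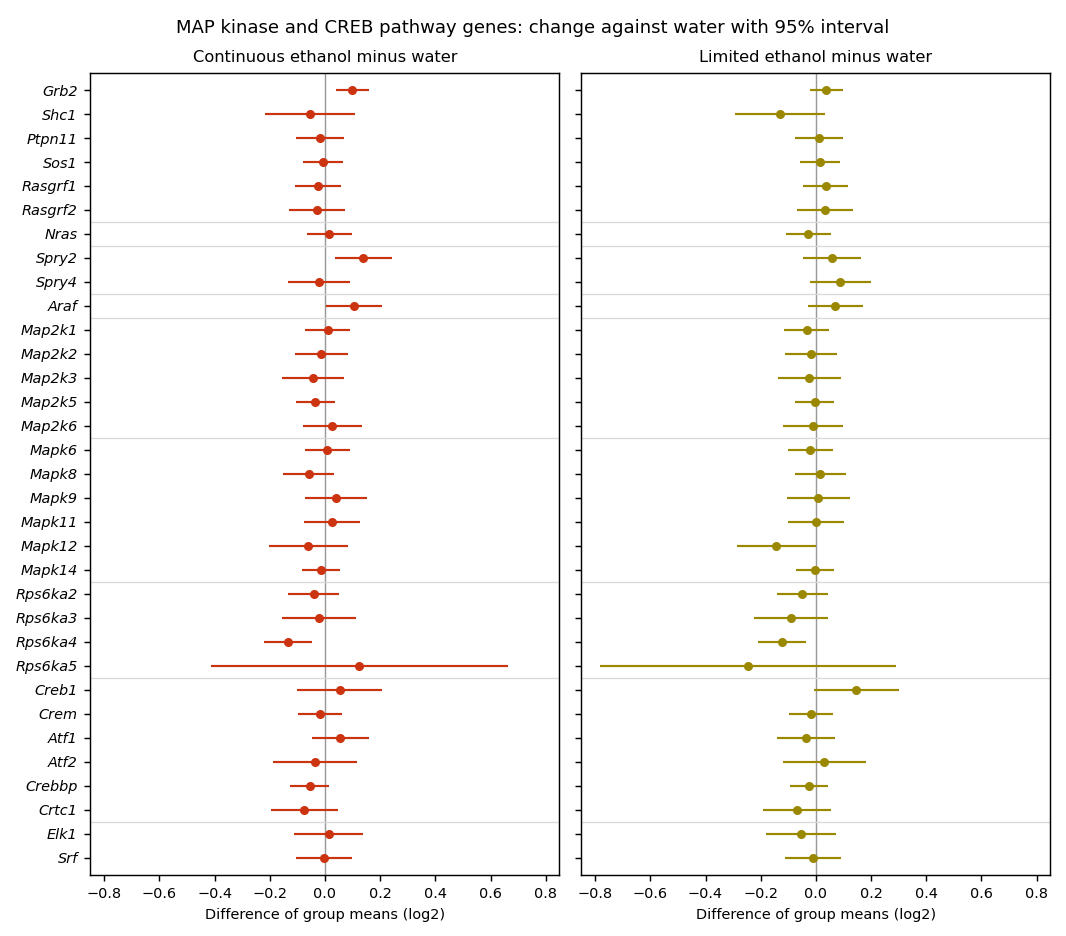
Difference of group means on the log2 scale (x axis) with its 95% interval for each of the 33 tested genes (y axis, in pathway order from adaptors to transcription factors), for continuous ethanol minus water and limited ethanol minus water. Most points lie within 0.05 of 0, and Rps6ka5 has by far the widest interval.

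Among the adaptors and Ras exchange factors, Grb2, the adaptor that brings SOS to activated receptors, had the smallest p of the 33 genes for continuous ethanol against water. Its lowest, median and highest arrays were 11.91, 11.99 and 12.08 in water, 11.93, 12.04 and 12.13 with limited and 12.02, 12.09 and 12.21 with continuous ethanol (log2). All 10 continuous arrays lay above the water mean, although the ranges overlapped. The difference was 0.10 ± 0.03 (SE, 95% interval 0.04 to 0.16, limma adjusted p = 0.145) for continuous against water and 0.04 ± 0.03 (adjusted p = 0.972) for limited against water. Limited minus continuous was -0.06 ± 0.03 (adjusted p = 0.529), with 9 of 10 limited arrays below the continuous mean. The 2 dimmer Grb2 probe sets had continuous minus water differences of 0.03 ± 0.04 and -0.12 ± 0.07 (adjusted p = 0.732 and 0.399), so they did not share the value of the brightest. With the mean of all Grb2 probe sets continuous minus water was 0.00.

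Shc1, an adaptor that links receptors to Grb2, had lowest, median and highest arrays of 9.23, 9.36 and 9.82 in water, 8.98, 9.32 and 9.44 with limited and 9.02, 9.37 and 9.63 with continuous ethanol. The highest water array, replicate 2, stood apart from the rest. Limited minus water was -0.13 ± 0.08 (adjusted p = 0.972) and -0.08 without that array. The phosphatase gene Ptpn11 and the exchange factor gene Sos1 had differences from water of -0.02 and -0.01 with continuous and 0.01 and 0.01 with limited ethanol. Rasgrf1 and Rasgrf2, exchange factors that respond to calcium in neurons, had -0.03 and -0.03 with continuous and 0.04 and 0.03 with limited ethanol. These 4 differed from water by no more than 0.04 with either schedule on their brightest probe sets. The dimmer Ptpn11 probe set had -0.13 ± 0.13 with continuous and 0.07 ± 0.13 with limited ethanol (adjusted p = 0.648 and 0.980). That of Sos1 had -0.01 ± 0.04 and -0.02 ± 0.04. Nras, the Ras gene measured, was at 10.82 ± 0.09 (SD, n = 9) in water, with differences of 0.02 and -0.03 in the same order. The dimmer Nras probe set had the opposite signs, -0.07 ± 0.05 with continuous and 0.02 ± 0.05 with limited ethanol.

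The Sprouty proteins and neurofibromin (Nf1) restrain Ras signalling. Spry2 had lowest, median and highest arrays of 10.38, 10.55 and 10.71 in water, 10.44, 10.59 and 10.74 with limited and 10.48, 10.66 and 10.90 with continuous ethanol. The groups overlapped over most of their range, and 9 of 10 continuous arrays lay above the water mean. Continuous minus water was 0.14 ± 0.05 (95% interval 0.03 to 0.24, adjusted p = 0.202), the largest difference from water on the brightest probe sets with continuous ethanol, and limited minus water was 0.06 ± 0.05 (adjusted p = 0.972). Spry4 went from 8.10 to 8.60 in water (median 8.32), from 8.23 to 8.55 with limited (median 8.41) and from 8.18 to 8.41 with continuous ethanol (median 8.27). Its spread was widest in water, and limited minus continuous was 0.11 ± 0.05 (adjusted p = 0.534, 8 of 10 arrays). Nf1, below the filter, averaged 5.98 ± 0.14 (SD, n = 9) in water, 5.91 ± 0.11 (n = 10) with limited and 5.89 ± 0.14 (n = 10) with continuous ethanol, and no test was made.

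Araf was the RAF kinase gene measured. Its lowest, median and highest arrays were 11.20, 11.33 and 11.51 in water, 11.16, 11.41 and 11.57 with limited and 11.30, 11.42 and 11.58 with continuous ethanol. Continuous minus water was 0.10 ± 0.05 (adjusted p = 0.290) and limited minus water 0.07 ± 0.05 (adjusted p = 0.972). In both ethanol groups 8 of 10 arrays exceeded the mean of the water arrays. The dimmer Araf probe set had differences of -0.06 ± 0.05 and -0.04 ± 0.05 (adjusted p = 0.620 and 0.972), opposite in sign, and with the mean of both probe sets continuous minus water was 0.02.

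The 5 MAP kinase kinases tested differed from water by -0.04 to 0.03 with either schedule. Map2k1, which encodes MEK1, the activator of ERK, had lowest, median and highest arrays of 12.53, 12.69 and 12.85 in water, 12.47, 12.69 and 12.80 with limited and 12.65, 12.69 and 12.78 with continuous ethanol. The medians were equal to 2 decimals, and the continuous arrays lay inside the water range. The differences were 0.01 ± 0.04 for continuous (95% interval -0.07 to 0.09, adjusted p = 0.929) and -0.03 ± 0.04 for limited against water (95% interval -0.11 to 0.05, adjusted p = 0.972), and without water replicate 2 the former was -0.01. Map2k2 (MEK2), Map2k3 and Map2k6, which activate p38, and Map2k5, which activates ERK5, had differences from -0.04 to 0.03 with continuous and from -0.02 to -0.01 with limited ethanol.

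Of the MAP kinases, 6 were tested. Mapk12, a p38 kinase, had lowest, median and highest arrays of 8.07, 8.42 and 8.68 in water, 8.08, 8.25 and 8.60 with limited and 8.16, 8.33 and 8.68 with continuous ethanol. The ranges nearly coincided, and limited minus water was -0.14 ± 0.07 (adjusted p = 0.972), with 8 of 10 arrays below the water mean. The other p38 genes Mapk11 and Mapk14 had differences of 0.03 and -0.01 with continuous and of -0.00 and -0.00 with limited ethanol. Mapk8, which encodes JNK1, had lowest, median and highest arrays of 10.70, 10.81 and 10.93 in water, 10.74, 10.84 and 10.96 with limited and 10.42, 10.79 and 10.93 with continuous ethanol. A single continuous array, replicate 7, lay below all others. Limited minus continuous was 0.07 ± 0.04 (adjusted p = 0.592) and 0.04 without that array. The dimmer tested Mapk8 probe sets had 0.01 ± 0.05 and -0.02 ± 0.04 in that comparison. Continuous minus water was -0.06 ± 0.05 on the brightest Mapk8 probe set and 0.00 ± 0.05 and 0.06 ± 0.04 on the dimmer ones. Mapk9 (JNK2) and Mapk6, an atypical MAP kinase also called ERK3, had differences of 0.04 and 0.01 with continuous and of 0.01 and -0.02 with limited ethanol.

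**Figure D2:**
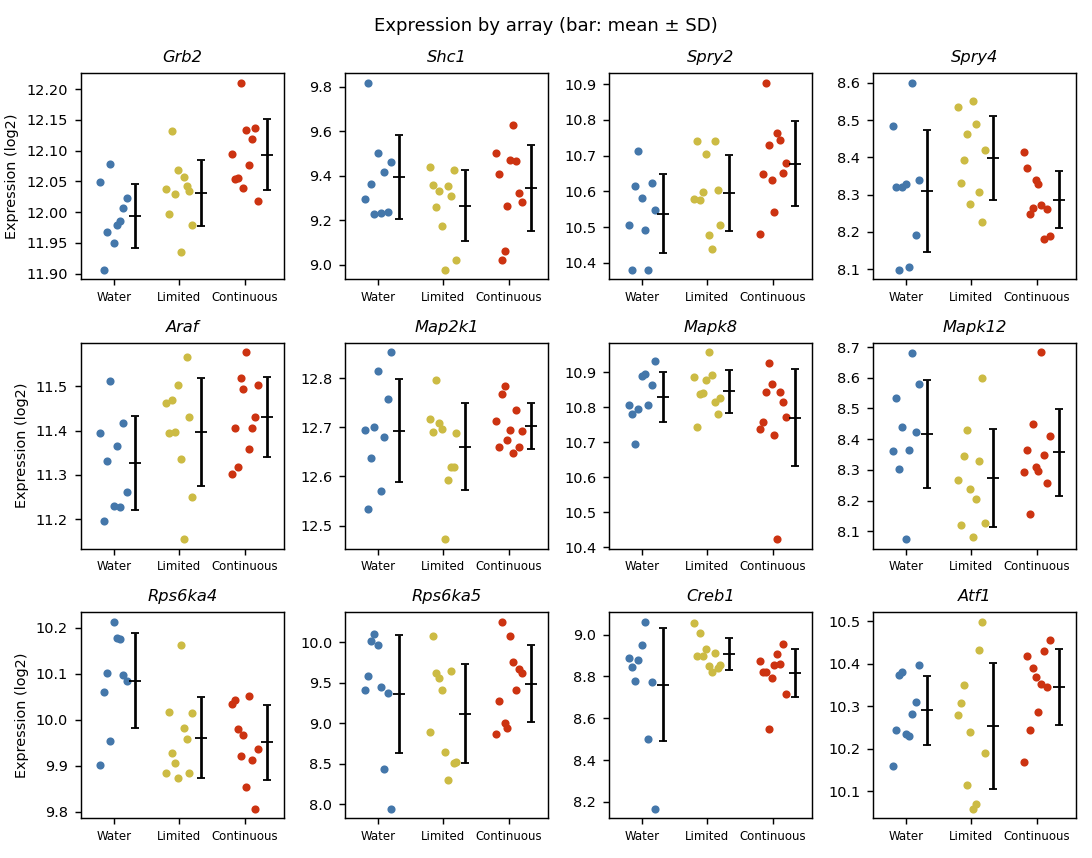
Expression on the log2 scale (y axis, scaled per gene) of 12 genes in each array (points), by group (x axis), with the group mean ± SD in black. The groups overlap in every panel; Grb2 and Spry2 are highest on average with continuous ethanol, and Rps6ka4 is highest on average in water.

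The kinases below the MAP kinases held the gene with the smallest p for limited ethanol against water and for both ethanol groups together. Rps6ka4 encodes MSK2, a nuclear kinase that phosphorylates CREB and histone H3. Its lowest, median and highest arrays were 9.90, 10.10 and 10.21 in water, 9.87, 9.94 and 10.16 with limited and 9.81, 9.95 and 10.05 with continuous ethanol. Of the 20 ethanol arrays 19 lay below the water mean, and the ranges overlapped. The difference was -0.13 ± 0.04 with continuous (95% interval -0.22 to -0.05, adjusted p = 0.158) and -0.12 ± 0.04 with limited ethanol (95% interval -0.21 to -0.04, adjusted p = 0.972), and both share the water arrays. For the mean of both it was -0.13 ± 0.04 (adjusted p = 0.298). A dimmer tested Rps6ka4 probe set had -0.08 ± 0.04 with continuous and -0.17 ± 0.04 with limited ethanol (adjusted p = 0.383 and 0.841), the same sign in both, with arrays from 7.26 to 7.47 in water, from 7.07 to 7.38 with limited and from 7.17 to 7.46 with continuous ethanol. None of these values passed the test. The remaining Rps6ka4 probe set, below the filter and not tested, was not lower with ethanol. It averaged 6.63 ± 0.19 (SD, n = 9) in water, 6.67 ± 0.14 (n = 10) with limited and 6.65 ± 0.10 (n = 10) with continuous ethanol.

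Rps6ka5, which encodes the related kinase MSK1, had the widest spread among arrays. Its lowest, median and highest arrays were 7.95, 9.45 and 10.10 in water, 8.30, 9.15 and 10.09 with limited and 8.88, 9.52 and 10.26 with continuous ethanol. Over all 29 arrays this probe set covered 2.31 log2 units, and the other Rps6ka5 probe set covered 0.777, from 8.52 to 9.30. The differences of the brightest probe set from water were 0.12 ± 0.26 (95% interval -0.41 to 0.66, adjusted p = 0.847) with continuous and -0.25 ± 0.26 (95% interval -0.78 to 0.29, adjusted p = 0.972) with limited ethanol, so changes of the size seen in the other genes were not detectable on it. Without water replicate 9 the same differences were -0.05 and -0.42, and without the 5 arrays apart on the second principal component they were 0.27 and 0.07. The other probe set had 0.08 ± 0.06 and 0.00 ± 0.06, and its 95% intervals ran from -0.06 to 0.21 and from -0.13 to 0.13.

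**Figure D3:**
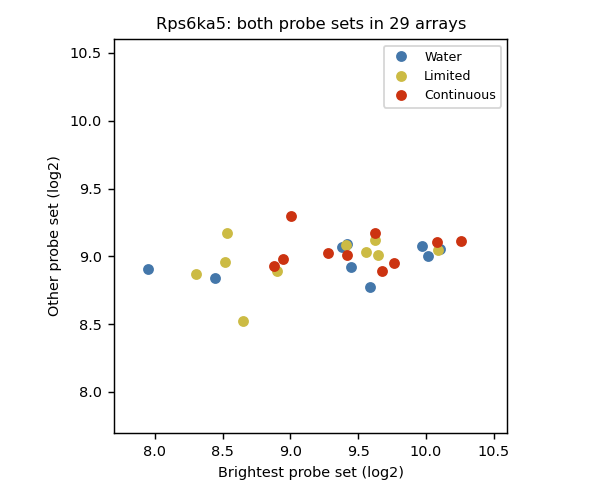
Log2 expression of Rps6ka5 in each of the 29 arrays on its brightest probe set (x axis) and its other probe set (y axis), on equal scales, with groups in colour. The points spread over 2.31 units along x and 0.777 along y, and the groups overlap, with continuous arrays from 8.88 to 10.26 along x.

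The RSK genes Rps6ka2 and Rps6ka3 had differences of -0.04 and -0.02 with continuous and of -0.05 and -0.09 with limited ethanol on their brightest probe sets. The probe sets of Rps6ka3 differed in this. Its 2 dimmer ones had 0.15 ± 0.09 and 0.35 ± 0.14 with continuous ethanol (adjusted p = 0.424 and 0.218), and the latter, with a mean of 7.07 ± 0.36 (SD, n = 9) in water and 7.42 ± 0.22 (n = 10) with continuous ethanol, was the largest difference of any tested probe set of these genes in that comparison.

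Among CREB and its relatives, Creb1 itself had lowest, median and highest arrays of 8.17, 8.85 and 9.06 in water, 8.82, 8.90 and 9.06 with limited and 8.55, 8.84 and 8.95 with continuous ethanol. All 10 limited arrays lay above the water mean, to which the lowest array, water replicate 9, contributed. Limited minus water was 0.15 ± 0.08 (adjusted p = 0.972) and 0.07 without that array. Continuous minus water was 0.05 ± 0.08 (adjusted p = 0.749) and -0.02 without it. The 3 dimmer Creb1 probe sets were below the filter. Atf1, a close relative of CREB that binds the same element, had arrays from 10.16 to 10.40 in water (median 10.28), from 10.06 to 10.50 with limited (median 10.26) and from 10.17 to 10.45 with continuous ethanol (median 10.36), and limited minus continuous was -0.09 ± 0.05 (adjusted p = 0.557). Atf2, which JNK and p38 phosphorylate, had differences from water of -0.03 with continuous and 0.03 with limited ethanol.

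Crem, whose CRE-bearing windows are printed above, was read on 6 probe sets, 3 of them tested. The brightest was at 9.72 ± 0.09 (SD, n = 9) in water, 9.71 ± 0.08 (n = 10) with limited and 9.70 ± 0.07 (n = 10) with continuous ethanol, with both differences at -0.02 ± 0.04 (adjusted p = 0.835 with continuous and 0.983 with limited). The next, whose probe set suffix marks probes shared between transcripts, had lowest, median and highest arrays of 9.18, 9.26 and 9.46 in water, 9.23, 9.30 and 9.57 with limited and 9.05, 9.14 and 9.51 with continuous ethanol. All 10 limited arrays lay above the continuous mean, and limited minus continuous was 0.15 ± 0.05 (adjusted p = 0.526). The dimmest of the 3 tested, with 7.02, 7.10 and 7.11 as the medians of water, limited and continuous arrays, had a continuous minus water difference of 0.13 ± 0.06 (adjusted p = 0.302, 9 of 10 arrays). The 3 tested probe sets thus did not share a sign for continuous ethanol against water. Which Crem transcripts each probe set reads was not determined.

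Crebbp, the histone acetyltransferase that phosphorylated CREB recruits, had differences of -0.06 ± 0.03 with continuous and -0.02 ± 0.03 with limited ethanol (adjusted p = 0.417 and 0.973), and its other tested probe sets had -0.02 and -0.01 with continuous ethanol. Crtc1, a calcium-regulated CREB coactivator of neurons, had -0.07 ± 0.06 with each schedule (adjusted p = 0.551 and 0.972). Elk1 had 0.01 with continuous and -0.05 with limited ethanol, and its dimmer probe set had -0.09 ± 0.06 and -0.04 ± 0.06. Srf, whose window with a pair of CArG boxes is printed above, was at 10.89 ± 0.09 (SD, n = 9) in water, 10.88 ± 0.15 (n = 10) with limited and 10.89 ± 0.05 (n = 10) with continuous ethanol, and its differences were -0.01 and -0.01.

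Probe sets of the same gene often differed in sign, and whether they did so more than those of other genes was not tested. Of 15 genes with more than 1 tested probe set, all had the same sign in 8 for continuous against water, in 5 for limited against water, in 5 for limited against continuous and in 7 for the mean of both ethanol groups against water. Of the 20 dimmer tested probe sets 0 passed in any comparison in limma. At an unadjusted p under 0.05 were 2, 1, 4 and 1 of the 20 in that order. Over all tested probe sets the shares were 16.1%, 4.44%, 9.31% and 10.2%.

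**Figure D4:**
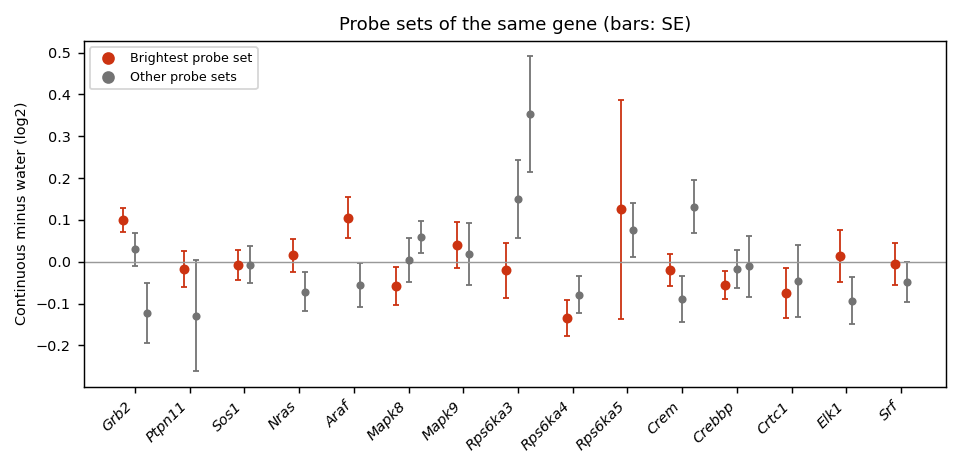
Difference between continuous ethanol and water on the log2 scale (y axis, bars show the SE) for each tested probe set of the 15 genes with more than 1 (x axis). Grb2, Araf and Crem have probe sets on both sides of 0, and the 0.35 of a dim Rps6ka3 probe set is the largest difference.

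Further genes of the pathway came from lists named with these results known. Of 52 other cascade genes, 37 were tested and 0 passed in limma in any of the 4 comparisons, with 7 at an unadjusted p under 0.05 for continuous against water (18.9%, against 16.1% of all tested; 1 higher, 6 lower) and 3, all lower, for limited against water (8.11%, against 4.44%). There were 4 for limited against continuous (10.8%, against 9.31%; 2 in each direction) and 4, all lower, for the mean of both ethanol groups (10.8%, against 10.2%). The smallest p values for continuous ethanol were those of Ptpn5, a striatum-enriched phosphatase that inactivates ERK (-0.11 ± 0.04, adjusted p = 0.191), the JNK scaffold gene Mapk8ip2 (-0.14 ± 0.05, adjusted p = 0.199) and Map3k3 (-0.08 ± 0.03, adjusted p = 0.223). With limited ethanol they were those of Mapk8ip2 (-0.15 ± 0.05), Map3k3 (-0.08 ± 0.03) and Rasgrp2 (-0.11 ± 0.05), each at an adjusted p of 0.972. For limited minus continuous, Mapk4, Map3k1 and Sos2 had 0.12 ± 0.04, -0.22 ± 0.08 and -0.10 ± 0.05 (adjusted p = 0.526, 0.526 and 0.534). For the mean of both ethanol groups, Mapk8ip2, Map3k3 and Rasgrp2 had -0.15 ± 0.05, -0.08 ± 0.03 and -0.10 ± 0.04 (adjusted p = 0.331, 0.380 and 0.442). Of 20 other genes of CREB and SRF regulation, 14 were tested and 0 passed in any comparison. At an unadjusted p under 0.05 were 0 for continuous against water (against 16.1% of all tested) and 1, lower, for limited against water (7.14%, against 4.44%). There were 0 for limited against continuous (against 9.31%) and 2, each lower, for the mean of both ethanol groups (14.3%, against 10.2%). Sik3, Creb3l1 and Sik1 had the smallest p with continuous ethanol (-0.07 ± 0.04, -0.07 ± 0.04 and 0.09 ± 0.06, adjusted p = 0.337, 0.40 and 0.407). With limited ethanol they were Creb3l1, an ER-bound CREB relative, the coactivator gene Crtc2 and the kinase gene Sik3 (-0.12 ± 0.04, -0.07 ± 0.04 and -0.06 ± 0.04, adjusted p = 0.972 for each).

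Immediate-early and other genes that this route is known to induce included some that rose. Of 27 response genes, a list chosen with earlier results of these arrays known and therefore not independent evidence of its direction, 24 were tested, and 6 of them rose with continuous ethanol (0.0874% of all tested probe sets rose). These were Fos (0.79 ± 0.12, adjusted p = 0.00120), Nr4a1 (0.70 ± 0.09, adjusted p = 1.05e-04), Arc (0.61 ± 0.11, adjusted p = 0.0131), Dusp1 (0.50 ± 0.08, adjusted p = 0.00245), Ier2 (0.41 ± 0.07, adjusted p = 0.00821) and Junb (0.34 ± 0.06, adjusted p = 0.00506). With limited ethanol 0 of the 24 passed in limma, with 8 at an unadjusted p under 0.05, all higher (33.3%, against 4.44% of all tested), among them Nr4a1 (0.47 ± 0.09, adjusted p = 0.234) and Junb (0.28 ± 0.06, adjusted p = 0.316). The same 6 genes rose with continuous ethanol with each of the 29 arrays left out in turn and without the 5 arrays apart, an alternative chosen after seeing the data, where the list median was 0.07. With all arrays the list median was 0.13 with continuous and 0.10 with limited ethanol, beside -0.01 and -0.01 for the 33 cascade genes and 0.00 and 0.00 over all tested probe sets. The difference between these lists was not tested. The 27 response genes had 24 promoter windows, which came from 19 genes. A full CRE was in 5 of these windows (20.8%, against 1.83% of all windows), those of Btg2, Dusp1, Ier2, Sst and Vgf. The core was in 13 (54.2%, against 21.2%). The CArG box was in 3 (12.5%, against 1.64%), those of Dusp5, Egr1 and Egr2. Of the 6 genes that rose, Dusp1 and Ier2 had a full CRE, and Junb and Nr4a1 had the core without it. Fos and Arc were named for none of these motifs. Since some response genes had no window, a missing window and a missing match were not told apart for Fos and Arc. A link between these matches and the rise was not tested.

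**Figure D5:**
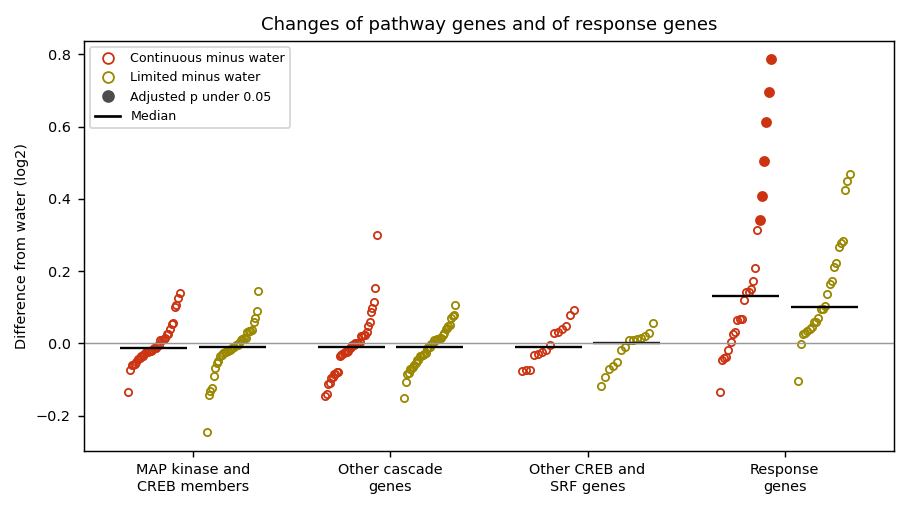
Differences from water on the log2 scale (y axis) for the 33 tested cascade and CREB genes, 37 other cascade genes, 14 other CREB and SRF genes and 24 response genes (x axis), with continuous ethanol in red and limited ethanol in yellow. Filled points passed the test; these are the 6 response genes with continuous ethanol, and black lines mark the medians.

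Cell type markers were read on the same arrays. Lying above the filter does not show which part of the striatum was sampled, since the measured markers of every cell type listed did so. Of 12 marker genes of medium spiny neurons, the main neurons of the accumbens, 11 were measured and all lay above the filter, with means from 9.96 to 13.54, among them Drd1, Drd2, Penk and Ppp1r1b. With continuous ethanol 10 of the 11 were lower than in water, with a median of -0.09, and 0 passed in limma; 3, all lower, were at an unadjusted p under 0.05 (27.3%, against 16.1% of all tested), namely Rasd2, Rgs9 and Drd2 (-0.23 ± 0.06, -0.20 ± 0.06 and -0.16 ± 0.06, adjusted p = 0.136, 0.15 and 0.218). With limited ethanol 8 of the 11 were lower, with a median of -0.02. The part of these markers in the values of the cascade genes was not tested. Markers of cortex (4 of 5 measured), astrocytes (8 of 8), oligodendrocytes (7 of 8), microglia (8 of 8), endothelium (8 of 8) and leptomeninges (10 of 10) lay above the filter too, and since this is whole tissue, fewer cells of a type and less RNA per cell cannot be told apart. Summed as a mean deviation per array, leptomeningeal markers ran from -0.25 to 1.01 in water, from -0.37 to 0.68 with limited and from -1.61 to 0.68 with continuous ethanol, and endothelial markers from -0.07 to 0.42, from -0.07 to 0.19 and from -0.33 to 0.02. Over all 21729 tested probe sets 10326 were lower with continuous ethanol than in water. Of the 8 endothelial markers 7 were lower, 5 of them at an unadjusted p under 0.05 (62.5%, against 16.1% of all tested), of which Adgrl4 fell (-0.37 ± 0.07, adjusted p = 0.0143; -0.28, adjusted p = 0.145, without the 5 arrays apart), and of the 10 leptomeningeal markers 10 were lower and 0 passed. With the leptomeningeal score as a covariate the continuous minus water differences were 0.09 for Grb2, -0.14 for Rps6ka4 and 0.12 for Spry2. Without it they were 0.10, -0.13 and 0.14. For Map2k1 the difference was -0.00475 with it and 0.0097 without it. The part of the leptomeningeal or endothelial markers in these differences was not tested.

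Without the 5 arrays apart on the second principal component the continuous minus water differences were 0.08 for Grb2, -0.10 for Rps6ka4, 0.11 for Spry2 and 0.07 for Araf (adjusted p = 0.449, 0.461, 0.504 and 0.626), and limited minus water was -0.12 for Rps6ka4, -0.16 for Mapk12, -0.04 for Shc1 and 0.26 for Creb1 (adjusted p = 0.956, 0.956, 0.995 and 0.956). Limited minus continuous was then -0.05 for Grb2, 0.08 for Spry4, -0.04 for Atf1 and 0.06 for Mapk8. The counts of cascade genes that passed were 0 with and without these arrays.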

How the data were processed

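The deposited values are log2 expression values that the authors made with RMA (background correction, quantile normalization and probe summary), per the submitters' processing notes. Their range, 4.04 to 16.04, gave the log base. The RMA software version is not given in the sources used here, and no scan date or batch was used. Targets were biotin-labelled cRNA, per the labels' protocols. Array medians lay between 8.17 and 8.21, and 0 pairs of arrays were identical. RMA equalises arrays, so a shift common to most transcripts is not visible, and the number of arrays limits precision.

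Of 31099 probe sets, 57 controls and the dimmest 30 percent by mean (at or below 6.86) were left out, and 21729 were tested. The platform table gave 1 symbol to 20832 probe sets, several to 436 and none to 9831. All 29 arrays entered 1 limma fit (limma 3.58.1, R 4.3.3) with group as the factor. Tests were two-sided, with Benjamini-Hochberg adjustment over all tested probe sets and a threshold of 0.05; adjusted p-values are from limma throughout. In simulated data, 37.3% of 67 probe sets given a true change of 0.2 between continuous ethanol and water were recovered. At a true change of 0.4, 88.1% of 67 were recovered, and at 0.8, 100% of 66. The simulation changed the continuous group only, with independent normal noise and a number of changed probe sets set in advance. That number moves the adjusted p, so these rates need not hold for the real arrays or for the other comparisons. With limited ethanol, a response gene with a difference of 0.47 did not pass. A count of 0 that passed therefore does not by itself show that changes of 0.2, or larger ones, were absent. Changes are differences of means on the log2 scale with SE.

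The genes, lists and alternatives were chosen with earlier results of these data known. Named in full were the 4 genes of smallest p in each of 4 comparisons, and Mapk3, Map2k1, Braf, Hras, Creb1 and Rps6ka5 where measured; of the other lists, the genes that passed or, where none did, the 3 of smallest p, in the comparisons shown; other probe sets were chosen after their values were seen. Alternatives covered the filter, normalization, prior, weights, covariates, replicate block, arrays left out and probe set choice; leaving out each array in turn, and the response gene counts without arrays, were added after seeing the data. The fit has no replicate block, since the labels do not say that a replicate number is shared between groups.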

Additional observations from a re-analysis of the deposited data

Results flagged for a closer look

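In the 33 tested genes, 9 of 99 sets of arrays (a gene in a group) held an array set apart from the rest of its group by Dixon's test; chance gives about 1 in 20. Water replicate 9 was involved in 3 of them: it was low for Rasgrf2 (8.65, next array 8.84) and high for Crtc1 (10.10, next 9.89) and Elk1 (9.13, next 8.82). Continuous replicate 7 was high for Map2k2 (10.55, next 10.41) and low for Mapk8 (10.42, next 10.72). Limited replicate 6 was low for Mapk6 (10.19, next 10.33) and high for Rps6ka4 (10.16, next 10.02), and limited minus water for Rps6ka4 was -0.15 without it. Water replicate 2 was high for Shc1 (9.82, next 9.50), and limited replicate 5 was low for Ptpn11 (12.64, next 12.78).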

How the results depend on the processing

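The count of cascade genes past the threshold stayed at 0 in each comparison under all 14 alternatives that gave a value and with each of the 29 arrays left out in turn; fitting only the groups compared was not run for the mean of both ethanol groups or the F test. The smallest adjusted p of a member under any of these was 0.0668, for Grb2 with continuous ethanol without water replicate 4, where 94 of all tested probe sets passed in place of 33. With the replicate block the smallest was 0.104, also for Grb2 (0.11), and it changed no call. Deviations of same-numbered arrays correlated between -0.24 and 0.34, with 12 of 28 pairs over 0.1; the labels do not say that a number is shared, and these values do not settle it. Rps6ka4 kept its sign throughout, from -0.16 to -0.10 with continuous and from -0.15 to -0.11 with limited ethanol. Signs turned in 5 of 21 named differences. For Map2k1 with continuous ethanol the value was -0.0062 with quantile normalization applied again, -0.00423 with array weights, -0.00475 with the leptomeningeal score as a covariate and -0.017 without the arrays apart on the second principal component; with single arrays left out it ran from -0.010 to 0.030. For Rps6ka5 it was -0.090 with array weights for continuous ethanol, -0.053 to 0.217 with single arrays left out, and 0.065 for limited ethanol without the arrays apart. For Creb1 with continuous ethanol it ran from -0.020 to 0.092 with single arrays left out and was 0.15 without the arrays apart, and for Grb2 in the mean of both ethanol groups it was -0.0035 when a gene's probe sets were averaged. The cause of these turns was not tested.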
